A study of Mus musculus with 6 samples.

Results

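The AP-1 and EGR immediate-early factors were examined in cultured mouse lung fibroblasts with intact or deleted Atf4. The 10 genes were Fos, Fosb, Fosl1, Fosl2, Jun, Junb, Jund, Maff, Egr1 and Egr2. The list was made by gene name, with earlier results of these data known. A gene was measured where a transcript cluster, a set of array probes summarised as 1 value, names that gene alone. This held for 9 of the 10 genes, each with a single cluster, out of 30738 genes measured in this way. Junb shares its cluster with Prdx2, so no value is given for it. Values are log2 array values after robust multi-array averaging (RMA). They can be compared between arrays for the same gene, and not between genes.

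The control group, LFBwt/wt, was 3 arrays of lung fibroblasts from Atf4wt/wt mice, and LFBD/D was 3 arrays from Atf4D/D mice, in which D stands for the deleted allele. The mice were young adults on a C57BL/6 background. Mice of both genotypes carried Rosa26::CreERT2, a tamoxifen-inducible Cre active in all tissues, and received tamoxifen, which in Atf4D/D mice removed floxed exons of Atf4. Lungs of several males and females were digested together, and the culture medium held 4-hydroxytamoxifen and serum for either genotype. All cultures were at passage 2 and had received no stimulus named in the labels. By the study's account the deletion in mouse tissue was almost complete. The labels call the replicates biological without saying if each had its own animals, so the p-values given here cover the variation among 3 cultures of a group, part of which may be technical.

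AP-1 is a pair of leucine zipper proteins, usually a FOS protein with a JUN protein, that binds DNA and turns genes on or off. FOS proteins cannot pair with themselves, while JUN proteins can. Their genes and the zinc finger genes Egr1 and Egr2 are switched on within minutes by serum, growth factors and stress through MAP kinases and serum response factor, without need for new protein, and their transcripts are short-lived. In fibroblasts they are known for linking such signals to growth, matrix proteases and cytokines. Atf4 encodes another leucine zipper protein, the main effector of the integrated stress response.

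Among these genes Fosl1 and Egr2 were higher in LFBD/D. Fosl1 was 2.02-fold higher and Egr2 1.82-fold higher, and the 3 arrays of each group stayed apart. Maff, Fos, Jun and Jund were 1.19- to 1.41-fold higher and were not called, and Fosb, Fosl2 and Egr1 differed by less than 1.1-fold in either direction. The term called is used for an adjusted p up to 0.05 in limma together with more than a 1.5-fold change. Of the 9 genes 2 were called, both higher in LFBD/D, against a background of 6.83% of all 30738 genes called in either direction, 3.88% higher and 2.94% lower. Over all 65956 clusters, unnamed ones included, 4.85% were called, 2.28% higher and 2.57% lower. With 9 genes, a count of 2 was given no test. At the adjusted p alone 3 of 9 passed, all higher, against 18.1% of all genes, 10.9% higher. The median log2 difference was 0.42 over the 9 genes and 0.02 over all genes.

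The start-site regions of Egr2 and Maff are shown because both passed the adjusted p. Also, of the 7 measured genes matched to a RefSeq promoter table, only these held a searched motif within the windows described below. Fosl1 and Egr1 were not searched. The stretches run from position -120 to -21 for Egr2 and from -110 to -11 for Maff, counted from the transcription start of 1 of several RefSeq transcripts of each gene. They lie on the plus strand at chr10:67537749-67537848 and chr15:79347410-79347509 in GRCm38.p6. Capitals mark, in Egr2, a CArG box, the site of serum response factor, and in Maff, an EGR site followed by a cyclic AMP response element.
Egr2: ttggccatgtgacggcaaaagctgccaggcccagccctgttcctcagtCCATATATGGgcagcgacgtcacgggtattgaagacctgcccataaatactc
Maff: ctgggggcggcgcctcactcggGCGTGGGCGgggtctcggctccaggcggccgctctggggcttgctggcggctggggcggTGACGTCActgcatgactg

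Each window spans 300 bases, most of them upstream of a transcription start, and both strands were searched. Sites farther from the start were not searched. A CArG box was present in 4 of 5 windows of Egr2, some of which overlap, though not with the same letters in all 4. Such a box was present in 1.63% of all 32851 windows and, counted by gene, in 1.81% of 27025 genes. The EGR site GCGTGGGCG was present in 0.612% of all windows and the element TGACGTCA in 1.79%, and both were present in 1 of the 3 windows of Maff. The AP-1 site TGACTCA was present in 5.20% of all windows, the C/EBP-ATF composite TGATGCAA in 0.895%, and neither in a window of the 7 genes. The windows of Fos, Fosb, Fosl2, Jun and Jund held none of the motifs searched, which leaves sites outside the windows unknown. These are matches of letters only, and binding was not measured.

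The labels were checked on Atf4 itself. Atf4 was at 8.67, 8.95 and 8.73 in LFBwt/wt and at 7.73, 7.49 and 7.48 in LFBD/D, so it was lower in every LFBD/D array, by 1.22 on the log2 scale (adjusted p of 0.000497 in limma). Probes outside a deleted part would still measure RNA. Arrays correlated at 0.997 to 0.998 within a group and at 0.988 to 0.993 between groups, and their medians lay between 4.87 and 4.91. Of 26 leukocyte markers measured 22 were called higher in LFBD/D and 0 lower, with a median of 6.72-fold. Their mean log2 value was 8.96 to 9.31 in the LFBwt/wt arrays and 11.13 to 11.55 in the LFBD/D arrays. The macrophage genes Adgre1 (F4/80) and Csf1r were 12.6-fold and 9.81-fold higher, while the T cell gene Cd3e, the B cell genes Cd79a and Ms4a1 and the lymphocyte gene Nkg7 lay below the array medians. Of 11 mesothelial markers 9 were lower and 1 higher, with a median of 4.32-fold lower. Of 9 fibroblast markers 5 were lower and 0 higher, with a median of 1.87-fold lower, among them Col1a1 (4.65-fold). Vim and Dcn were the only ones of the 9 with a positive difference and were not called, while Thy1 and Pdgfrb fell by 1.82 and 0.91 on the log2 scale. Of 8 endothelial markers 3 were called higher and 0 lower, and of 7 epithelial markers 1 higher and 0 lower. Of 5 mural markers 0 were called higher and 1 lower. The arrays thus differed in markers of the labelled cell type as well as of others. In bulk RNA, fewer cells of a type and less RNA per cell cannot be told apart. Macrophages are known to express genes of both the AP-1 and the EGR family, and the part of these cells in the values given here was not tested.

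**Figure D1:**
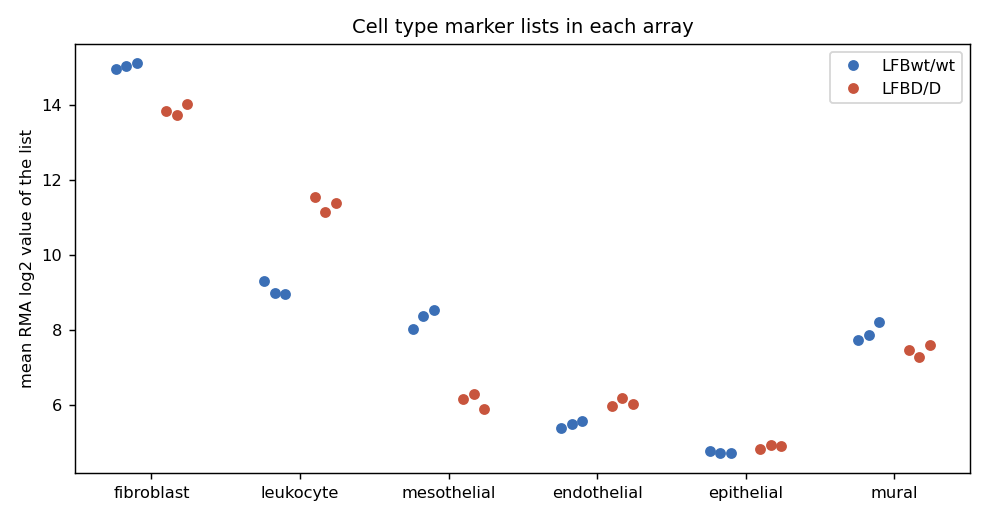
Mean RMA log2 value (vertical axis) of 6 cell type marker lists (horizontal axis), with 1 point per array, LFBwt/wt in blue and LFBD/D in red. Levels compare arrays within a list only: the leukocyte list lay at 8.96 to 9.31 in LFBwt/wt and at 11.13 to 11.55 in LFBD/D, and the mesothelial list at 8.02 to 8.53 and 5.88 to 6.28.

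The FOS family was mixed. Fosl1 encodes FRA-1, which pairs with JUN proteins but lacks the strong activation domain of FOS. It was at 6.20, 6.41 and 6.18 in LFBwt/wt and at 7.31, 7.16 and 7.37 in LFBD/D. Every LFBD/D array lay above every LFBwt/wt array, with a gap of 0.75 between the groups. Fosl1 rose by 1.02 on the log2 scale, with a standard error (s.e.) of 0.09, a 95% interval of 0.81 to 1.22 and an adjusted p of 0.00054 in limma. The gap was wider than the range within either group, which was 0.23 in LFBwt/wt and 0.21 in LFBD/D. Tested against a change of 1.5-fold instead of no change, the adjusted p was 0.0504 in limma, and the call was lost.

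Fos encodes the founding member of the family. Its values were 7.83, 7.97 and 7.66 in LFBwt/wt and 8.51, 7.90 and 8.54 in LFBD/D. Replicates 1 and 3 of LFBD/D lay above all LFBwt/wt arrays and replicate 2 lay among them, so the groups overlapped. The log2 difference was 0.50 (95% interval 0.09 to 0.91, adjusted p of 0.121 in limma) and Fos was not called. Replicate 2 of LFBD/D decided this, as without it the difference was 0.71 with an adjusted p of 0.00721 and Fos was called.

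Fosl2 encodes FRA-2, the closest relative of FRA-1. It was at 12.62, 12.63 and 12.69 in LFBwt/wt and at 12.36, 12.73 and 12.50 in LFBD/D. The LFBwt/wt arrays were close together and the LFBD/D arrays lay on both sides of them. Fosl2 differed by -0.12 on the log2 scale (95% interval -0.34 to 0.11, adjusted p of 0.546 in limma), an interval that leaves out changes of 1.5-fold in either direction.

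Fosb was at 4.58, 4.62 and 4.68 in LFBwt/wt and at 4.61, 4.77 and 4.71 in LFBD/D. It was brighter than 40.2% to 46.1% of the clusters of an array, below the median cluster on all 6 arrays. At a level this dim a change may not have been measurable. Fosb differed by 0.07 on the log2 scale (95% interval -0.08 to 0.22, adjusted p of 0.578 in limma).

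Both JUN genes measured were slightly higher in LFBD/D and neither was called. Jun, whose protein can pair with itself and with every FOS protein, was at 10.67, 10.76 and 10.67 in LFBwt/wt and at 11.34, 11.18 and 10.83 in LFBD/D. All LFBD/D arrays lay above the LFBwt/wt arrays, but the gap of 0.07 was much smaller than the LFBD/D range of 0.51. The log2 difference was 0.42 (95% interval 0.13 to 0.71, adjusted p of 0.0714 in limma). The adjusted p was 0.00795 without replicate 3 of LFBD/D, at a difference of 0.56, still below the fold threshold.

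Jund, which is known to be present in resting cells and to restrain growth, was at 9.811, 9.697 and 9.676 in LFBwt/wt and at 9.995, 10.074 and 9.875 in LFBD/D. The groups were apart by 0.06, less than the range of 0.20 in LFBD/D. Jund differed by 0.25 on the log2 scale (95% interval 0.09 to 0.42, adjusted p of 0.0625 in limma), and the interval leaves out a change of 1.5-fold.

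Maff encodes a small MAF protein, which binds DNA as a partner of other leucine zipper proteins and has no activation domain. It was at 8.30, 8.24 and 8.33 in LFBwt/wt and at 8.91, 8.68 and 8.64 in LFBD/D. The groups were apart by 0.31, more than the range of 0.27 in LFBD/D. The log2 difference was 0.45 (95% interval 0.26 to 0.64, adjusted p of 0.0109 in limma), a 1.37-fold change that passed the adjusted p but not the fold threshold.

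The EGR genes measured were unlike each other. Egr2, also known as Krox20, a factor of myelinating Schwann cells that is also expressed in myeloid cells, was at 7.06, 6.86 and 6.93 in LFBwt/wt and at 7.86, 7.75 and 7.82 in LFBD/D. Every LFBD/D array lay above every LFBwt/wt array, and the gap of 0.69 was wider than the ranges of 0.20 and 0.11 within the groups. Egr2 was higher by a log2 difference of 0.86 (s.e. 0.07, 95% interval 0.70 to 1.02, adjusted p of 0.000456 in limma). Tested against a change of 1.5-fold, the adjusted p was 0.143 in limma, and this call was lost as well.

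Egr1, the founding member of the family and a marker of recent growth factor signalling, was at 8.35, 8.58 and 8.45 in LFBwt/wt and at 8.28, 8.54 and 8.24 in LFBD/D. Replicates 1 and 3 of LFBD/D lay just below all LFBwt/wt arrays and replicate 2 lay among them. The log2 difference was -0.11 (95% interval -0.33 to 0.12, adjusted p of 0.598 in limma), again without room for a 1.5-fold change. The relatives Egr3, at 5.04 in LFBwt/wt close to the array medians, and Egr4 were also not called, with log2 differences of -0.03 and 0.01 and adjusted p of 0.846 and 0.974 in limma.

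**Figure D2:**
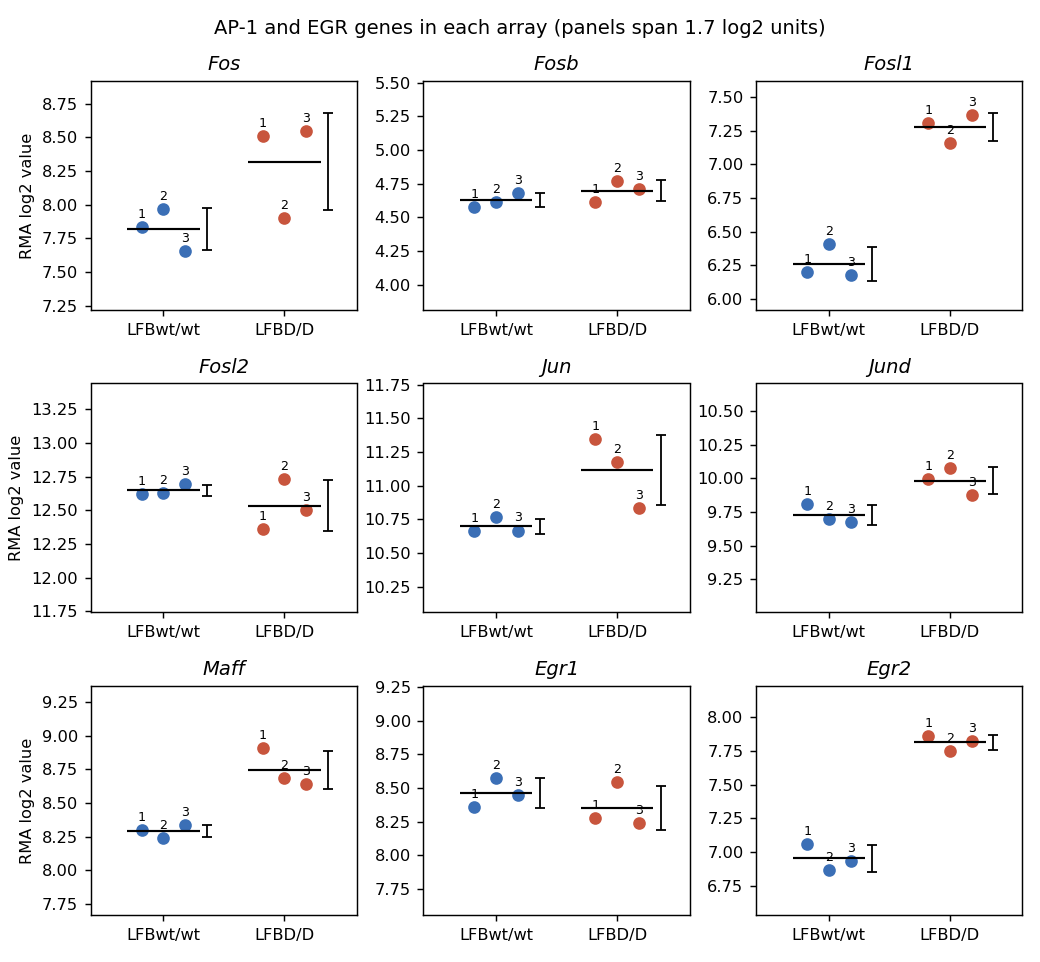
RMA log2 value (vertical axis, spanning 1.7 units in each panel) of the 9 genes in each array, with the replicate number above each point, the group mean as a line and the SD (n = 3) as a bar. Fosl1 and Egr2 separate the genotypes by gaps of 0.75 and 0.69, while replicate 2 of LFBD/D lies among the LFBwt/wt arrays for Fos.

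Groups without overlap were seen for 5 of 9 genes, namely Fosl1, Egr2, Maff, Jun and Jund, all with LFBD/D higher, against 37.5% of all genes in either direction and 22.4% with LFBD/D higher. No LFBD/D array was the high one throughout. Replicate 2 was the highest of its group for 4 genes (Fosb, Fosl2, Jund and Egr1) and the lowest for 3 (Fos, Fosl1 and Egr2). Replicate 3 was the highest for 2 and the lowest for 4, and replicate 1 the highest for 3 and the lowest for 2. The SD was larger in LFBD/D than in LFBwt/wt for 7 of 9 genes, and for 61.6% of all genes.

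Related genes were also compared on their differences, for 4 pairs picked after their values had been seen. The log2 difference of Fosl1 exceeded that of Fosl2 by 1.13 and that of Fos by 0.52, and the log2 difference of Egr2 exceeded that of Egr1 by 0.97. Each of these had p = 0.1 in an exact two-sided permutation test over arrays (0.133 after adjustment over the 4 pairs), which is the smallest p that 3 against 3 arrays allow. Jun exceeded Jund by 0.17, with an exact permutation p of 0.3, also 0.3 after adjustment.

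**Figure D3:**
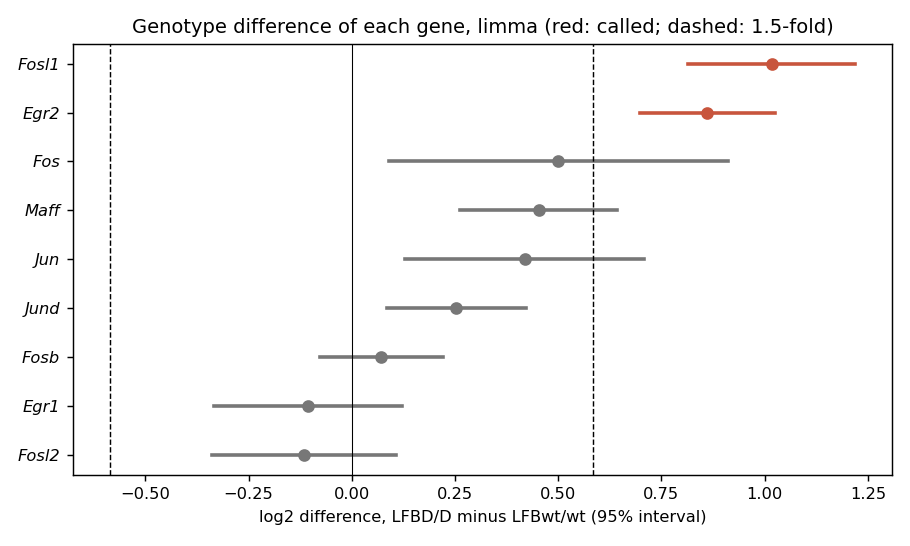
Log2 difference between LFBD/D and LFBwt/wt (horizontal axis) for each gene (vertical axis), with the 95% interval from limma as a bar, called genes in red and the 1.5-fold threshold as dashed lines. The intervals of Fosl1 (0.81 to 1.22) and Egr2 (0.70 to 1.02) lie wholly beyond the threshold, and those of Fosl2, Egr1, Fosb and Jund lie wholly within it. The intervals are not adjusted for the number of clusters, and in the adjusted test against 1.5-fold neither Fosl1 nor Egr2 was called. Fosb was dim, so a change in it may not have been measurable.

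Over the 6 arrays, the genes closest to Fosl1 in pattern, by the root mean square (r.m.s.) difference of values centred on each gene's mean, were Ppp1r2 (r.m.s. difference 0.028), Ptgs2os2 (0.058) and Cttnbp2nl (0.060). Ppp1r2, an inhibitor of protein phosphatase 1, was at 10.21, 10.43 and 10.13 in LFBwt/wt and at 11.30, 11.19 and 11.34 in LFBD/D. As with Fosl1, replicate 2 was the highest of LFBwt/wt and the lowest of LFBD/D. The genes closest to Fosl2, the gene with the lowest difference, were Samd14 (0.025), Vmn1r-ps64 (0.033) and Gm22785 (0.033). Of these Vmn1r-ps64 and Gm22785 had values below the array medians in LFBD/D on average, at 3.54 and 4.71.

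Of 11 other leucine zipper partners of AP-1 and MAF proteins measured, 1 was called higher and 0 lower. This is 9.09%, near the 6.83% of all genes, with a median log2 difference of 0.16. The one called was Atf3, a stress-induced factor that pairs with JUN proteins and is a known target of ATF4. It was at 7.57, 7.25 and 7.15 in LFBwt/wt and at 8.68, 8.40 and 8.80 in LFBD/D, without overlap. The log2 difference was 1.30 (s.e. 0.14, adjusted p of 0.0013 in limma), a 2.46-fold rise in the group in which Atf4 was lower.

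Other immediate-early genes moved in both directions. Of 43 measured, 10 were called higher, 4 lower and 29 were not called, which is 32.6% called against 6.83% of all genes, with a median log2 difference of 0.21. This list too was chosen with earlier results known, and only 1 of the 43 lay at or below the median cluster in LFBD/D. The share of all genes includes dim ones, in which a change may not have been measurable. The largest rises besides Atf3 were those of Tnfaip3, an inhibitor of NF-kappaB signalling, by 1.44 (s.e. 0.13), Ptgs2, the inducible cyclooxygenase, by 1.43 (s.e. 0.12), and Ier3, a survival factor of stressed cells, by 1.18 (s.e. 0.10). Tnfaip3 was at 6.72, 6.64 and 6.54 in LFBwt/wt and at 8.06, 7.83 and 8.33 in LFBD/D, and replicate 2 was again the lowest of LFBD/D. The 4 genes called lower, named after their values were seen, were Ier5l, Nfkbiz, Btg2 and Trib1, which fell by 1.14, 0.91, 0.80 and 0.72 on the log2 scale, with adjusted p of 0.000405 to 0.00189 in limma. Tnfaip3 and Ptgs2 are also expressed by macrophages, whose markers rose in the same arrays as given above, and the part of these cells was not tested.

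Of 36 genes of the MAP kinase and serum response factor pathway, which induces FOS and EGR genes, 3 were called higher, 0 lower and 33 were not called, with a median log2 difference of 0.09. The share called, 8.33%, was near the 6.83% of all genes. The 3 were Dusp6, Dusp5 and Dusp4, all phosphatases of MAP kinases, while the other 8 of 11 Dusp genes measured and all 6 Spry and Spred genes, which also restrain the pathway, were not called. Dusp6, which acts on ERK in the cytoplasm, was at 9.781, 10.006 and 9.858 in LFBwt/wt and at 11.361, 10.758 and 10.996 in LFBD/D, a difference of 1.16 (s.e. 0.15). Dusp5 and Dusp4, which act in the nucleus, rose by 0.81 (s.e. 0.12) and 0.68 (s.e. 0.11). Their adjusted p was 0.00267, 0.00573 and 0.0063 in limma. In a test that pools no variance across clusters, 0 of the 36 genes were called.

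Known targets of AP-1 were mostly higher, with 13 of 18 called higher, 1 lower and 4 not called. This is 77.8% called, against 6.83% of all genes, with a median log2 difference of 1.01. The list was chosen with earlier results of these data known, and only 1 of the 18 lay at or below the median cluster in LFBD/D. The share of all genes includes dim ones, in which a change may not have been measurable, so the 2 shares are not like for like. Mmp9, a gelatinase, was at 6.62, 6.43 and 6.49 in LFBwt/wt and at 12.19, 11.94 and 10.93 in LFBD/D, which is 36.1-fold higher. Plau, which encodes urokinase, rose by 2.60 (s.e. 0.24), Mmp12, the macrophage elastase, by 2.58 (s.e. 0.28) and Il11, a cytokine of fibroblasts, by 2.50 (s.e. 0.14). Their adjusted p was 0.000151 for Mmp9 and Il11, 0.000718 for Plau and 0.00147 for Mmp12 in limma. Mmp3, stromelysin-1, was the gene called lower, by 0.73 (s.e. 0.11). Mmp9, Mmp12 and Plau are also made by macrophages, and the leukocyte markers rose by a median of 6.72-fold in the same arrays. The part of these cells in the target list was not tested.

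Of 13 known targets of EGR1, 2 were called higher, 0 lower and 11 were not called. This is 15.4% called, against 6.83% of all genes. The median log2 difference was 0.02, the value over all genes to 2 decimals. Tgfb1 and Pdgfb, both growth factors, rose by 0.88 (s.e. 0.08) and 0.70 (s.e. 0.07). Pdgfb was dim, at 5.04 in LFBwt/wt, close to the array medians. At the adjusted p alone 3 of the 13 passed, against 18.1% of all genes. The other was Fn1, named after its values were seen, which fell by 0.55 on the log2 scale (adjusted p of 0.00513 in limma). Nab1 and Nab2, which bind and restrain EGR proteins, were not called. The 95% interval of the log2 difference was -0.20 to 0.20 for Nab1 and -0.74 to 0.07 for Nab2 (adjusted p of 0.987 and 0.296 in limma).

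**Figure D4:**
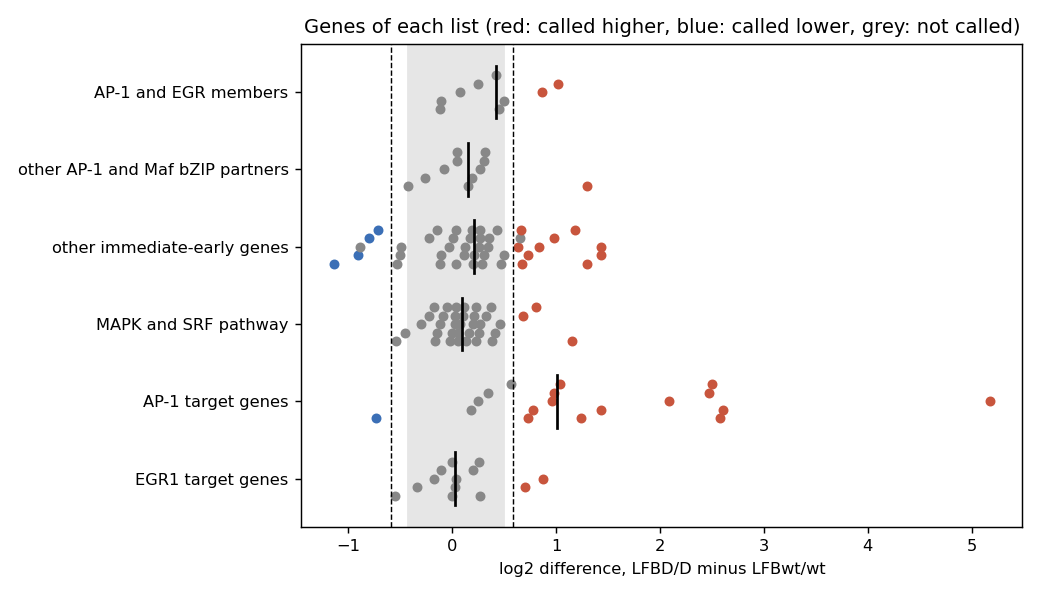
Log2 difference between LFBD/D and LFBwt/wt (horizontal axis) of each gene of 6 lists (vertical axis), red where called higher, blue where called lower and grey where not called, with the median of each list as a black line, the 1.5-fold threshold dashed and the range from the 5th to the 95th percentile of all genes (-0.42 to 0.50) shaded. The AP-1 targets have the highest median (1.01), and Mmp9 is the point farthest to the right.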

How the data were processed

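Cultured lung fibroblasts of 2 genotypes were profiled on Clariom D mouse arrays, 1 array per sample, and grouped by their titles. The authors deposited log2 values, which are analysed here. They normalised the scanner files by RMA in the Transcriptome Analysis Console (version 4) with default parameters. RMA's quantile step hides changes in total RNA, and values reach 18.88, above a plain scanner intensity range, so fold changes hold on the deposited scale only.

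Clusters were named from the platform annotation with symbols updated through RefSeq (GRCm38.p6). Of 65956 clusters 31292 named 1 gene, 1522 several and 33142 none. A gene with several clusters was represented by the brightest.

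Each cluster was fitted in limma 3.58.1 (R 4.3.3) on genotype alone, with Benjamini-Hochberg adjustment over all clusters. Calls needed an adjusted p up to 0.05 and more than a 1.5-fold change, thresholds taken from the study's methods, which name no test for the arrays. Promoter letters came from RefSeq. The fit was also run on simulated data with independent noise in each array, which checks the code only. Shared differences among cultures were not simulated.

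The members and gene lists were chosen with earlier results of these data known. Lists share genes (Atf3, Ptgs2, Dusp1 and Gadd45b each stand in 2). Named genes were the 9 measured members, Atf4, markers, up to 4 called genes per list with the largest change, and the 3 genes most alike the extreme members; others are marked in the text or, like Nab1, Nab2, Egr3, Egr4, Mmp3, Vim, Dcn, Thy1, Pdgfrb and lymphocyte markers, were added after their values were seen. Precision is limited by 3 arrays per group.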

Additional observations from a re-analysis of the deposited data

How the results depend on the processing

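Fosl1 and Egr2 were called under the settings reported and in every alternative run except a test against a fold change of 1.5, where their adjusted p was 0.0504 and 0.143 and 0 of the 9 genes passed. That test called 887 clusters against 3199 as reported, and, counting either direction here and below, 5 of the other immediate-early genes (14 as reported), 7 AP-1 targets (14 as reported) and 0 genes of the MAP kinase and of the EGR1 target list. With the adjusted p alone, 8542 clusters passed, and Maff joined at 0.45. Then 3 of 11 leucine zipper partners, 23 of 43 other immediate-early genes and 10 of 36 genes of the MAP kinase list passed. The share of all genes passing was 18.1%. Student's t-test, which the study names for 2 groups, called 1647 clusters, 9 AP-1 targets and 0 genes of the MAP kinase list. Leaving out each array in turn gave 2 to 3 of the 9 genes higher and 0 lower. The upper count came without replicate 2 of LFBD/D, when Fos was called at 0.71. These fits called 2663 to 3375 clusters, 1 leucine zipper partner, 13 to 16 other immediate-early genes, 3 to 4 of the MAP kinase list, 13 to 15 AP-1 targets and 2 to 3 EGR1 targets. No member changed direction in an alternative run on it. A variance trend and re-centred arrays changed no call among the 9 genes. A filter on dim clusters removed Fosb and changed no call among the other 8. Taking the dimmest cluster per gene could change nothing for the 9 genes, which have 1 cluster each.

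Replicate numbers are shared between the groups but the labels tie them to no litter or day, so the samples were not treated as paired. Deviations of same-numbered arrays correlated at -0.0417, -0.0084 and -0.222. Over all clusters, many of them dim, such values cannot exclude a shared litter or day. The fit with the replicate block called the same count of members, 2 higher and 0 lower, and 3060 clusters.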
